A study of Mus musculus with 6 samples.

Results

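Myokines are proteins that muscle secretes, and 9 genes known as myokine genes were followed in the gastrocnemius, a calf muscle, of mice with and without Sparc, which itself encodes a secreted matricellular protein. The genes were Ostn, Il15, Metrnl, Bdnf, Fgf21, Lif, Il6, Fndc5 and Gdf15. They were listed by name, as known myokines. A probe set whose only gene symbol was that of the gene was found for 7 of them, out of 19938 genes named in this way, and Fndc5 and Gdf15 were not analysed here. Each of the 7 had 1 probe set. The study compared metabolic gene expression in muscle, and its title concerns glucose tolerance and AMP-activated protein kinase. Total RNA from 3 wild type and 3 knockout males at 12 weeks of age was labelled with biotin and hybridised to a mouse gene array, 1 array per sample. The knockout is labelled homogenous for loss of SPARC, both groups carry the strain label B6;129S-Sparctm1Hwe/J, a mixed background, and no treatment is named. Littermate status is not given in the labels, and each array was taken as 1 mouse, so the p-values measure the spread between these samples.

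Myokines reach their targets through the blood or act inside the muscle. Osteocrin, the product of Ostn and also called musclin, resembles the natriuretic peptides and binds their clearance receptor, so that less of those peptides is removed. Interleukin 15 is presented by its receptor alpha chain to natural killer cells and memory T cells, and muscle fibres are one of its sources. Interleukin 6 and leukemia inhibitory factor (Lif) signal through receptors that share the gp130 chain. Brain-derived neurotrophic factor (Bdnf) acts through the TrkB receptor, and Fgf21 through an FGF receptor together with beta-klotho. Meteorin-like protein, encoded by Metrnl, is secreted by muscle and fat.

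Levels are given as log2 of the deposited intensity, where 1 unit is a doubling, and changes as knockout minus wild type on that scale. Median intensity per array lay between 40.5 and 44.7. Sparc itself was 43.9-fold lower in the knockouts, at 5.83 to 6.74 against 11.7 to 11.9 in wild type (log2 levels). Genes whose mean log2 level fell short of 3.90, which is the 25th percentile over all probe sets, were left out as dim, and 16487 genes were tested. Knockout arrays varied more than wild type arrays, with a median SD per gene of 0.163 against 0.0912, and on the first principal component knockout array 2 was the knockout closest to wild type (2.45, against 26.5 and 19.8 for the other knockouts and -16.8 to -15.8 for the wild types). Markers of muscle fibres were bright in every array, and all 12 of them passed the filter.

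Of the 7 measured myokine genes, 6 passed the dim filter and Il6 did not. By limma, 0 of the 6 passed an adjusted p of 0.05, where 0.995% of all tested genes did (0.321% higher and 0.673% lower). At an unadjusted p of 0.05, 1 was higher (Il15) and 1 lower (Ostn), where 18.4% of all tested genes passed (8.16% higher and 10.3% lower). The 2 genotypes were fully separated for the same 2 genes, Il15 above (11.1% of all tested genes) and Ostn below (13.8%), which is 2 of 6 genes beside 25% of all tested genes in either direction, so nothing about the myokine genes as a set is read from that share. The median change of the 6 was 0.08, beside 5.34e-05 over all tested genes.

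**Figure D1:**
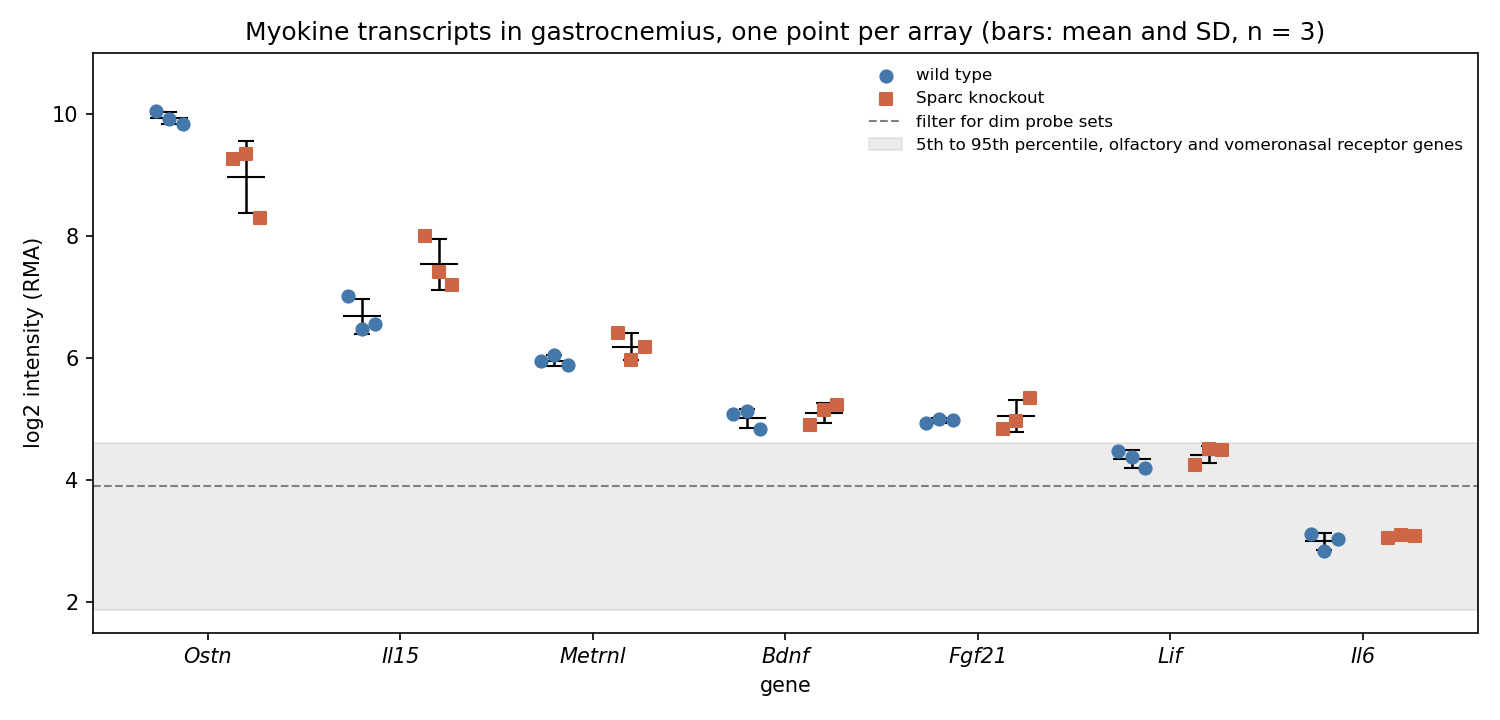
Log2 intensity of the 7 measured myokine genes in each array, with circles for wild type, squares for knockout, and bars for mean and SD over 3 arrays. Ostn lies lower and Il15 higher in every knockout array than in any wild type array, and Il6 lies under the dashed filter line, inside the grey band that holds the 5th to 95th percentile of olfactory and vomeronasal receptor genes.

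Several of these genes were dim, so their levels were set beside 1194 olfactory and vomeronasal receptor genes, which muscle is not expected to express. The median log2 level of those receptors was 2.87 and their 95th percentile was 4.61. Of those receptors 14.7% passed the dim filter, so passing it does not by itself show expression. Ostn, at a mean of 9.45 over all arrays, and Il15, at 7.11, were above all of them. Metrnl, at 6.07, was above 99.6% of them, and Bdnf and Fgf21, at 5.06 and 5.01, were each above 98.3%. Lif, at 4.38, was above 92.7% and lay below the 95th percentile, and Il6, at 3.04, was above 58.1%. For Lif and Il6 the readings therefore cannot be told apart from the background of the array. Probe sets differ in brightness per transcript, so these levels do not rank the genes by abundance.

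Ostn had the largest change of the 6 tested genes. Its wild type intensities were 1057, 971 and 913 in arrays 1, 2 and 3, and its knockout intensities were 616, 652 and 313. Every knockout value was below every wild type value, and knockout array 3 stood apart from the other 2 knockouts. The mean log2 level ± SD over 3 arrays was 9.93 ± 0.11 for wild types and 8.97 ± 0.59 for knockouts, 1.95-fold lower. The change of -0.97 ± 0.25 (SE) had a 95% interval of -1.53 to -0.40 and did not pass (limma adjusted p = 0.105). Ordered by size, it ranked 39 among the negative changes of all tested genes. Without knockout array 3 it was -0.63 and passed (limma adjusted p = 0.0430), and without knockout array 2, where 1017 genes passed over all in place of 164, it was -1.16 and passed (limma adjusted p = 0.0423). With any of the other 4 arrays left out it did not pass (limma adjusted p = 0.0849 to 0.340).

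Ostn is known to be made by muscle fibres, and fibre markers were compared beside it, of which 0 of 12 passed by limma. At an unadjusted p of 0.05, 1 was higher and 2 were lower (8.16% and 10.3% of all tested genes). Of these 12 markers 9 had negative and 3 positive changes, with a median of -0.10. In every knockout array 8 were lower than in any wild type array, as were 13.8% of all tested genes. Mb, named after its value was seen, was higher in every knockout array, as were 11.1% of all tested genes. Its change was 0.17 ± 0.08 (SE, limma adjusted p = 0.306). Ckm, muscle creatine kinase, had a change of -0.28 ± 0.08 (SE) and Actn3, the alpha-actinin of fast fibres, one of -0.25 ± 0.09 (SE), with limma adjusted p-values of 0.133 and 0.169. Myh1, a fast myosin heavy chain named after its value was seen, was the 1 marker higher at an unadjusted p of 0.05. Its change was 0.43 ± 0.17 (SE, limma adjusted p = 0.218). The summed intensity of the 12 fibre markers was 88900 to 89705 in wild type and 78938 to 87059 in knockout arrays. Some of these markers were near the top of the intensity range. Acta1 read 11392 in wild type array 1 and 9398 in knockout array 1, where the maximum over all probe sets was 13565.8. Whether such bright markers saturate was not tested. The sum is given with that limit. The summed intensity was lowest in knockout array 1, at 78938, and stood at 85578 in knockout array 3, the array with the lowest Ostn. The part of fibre content in the Ostn difference was not tested, and in whole muscle fewer cells of a type and less RNA per cell cannot be told apart.

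Il15 was the member with the largest positive change. Its intensities were 129, 89.3 and 93.9 in wild type arrays 1, 2 and 3 and 256, 169 and 146 in knockout arrays 1, 2 and 3. The groups did not overlap, with knockout array 1 highest and the gap between knockout array 3 and wild type array 1 small. The mean log2 level ± SD over 3 arrays was 6.68 ± 0.29 for wild types and 7.53 ± 0.42 for knockouts, 1.80-fold higher. The change of 0.85 ± 0.22 (SE), with a 95% interval of 0.36 to 1.35, did not pass (limma adjusted p = 0.103). It ranked 129 among the positive changes of all tested genes. Without knockout array 1 it was 0.62 (limma adjusted p = 0.324).

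Macrophages and other immune cells are also known sources of interleukin 15, and macrophage markers were higher in the same arrays. All 14 measured macrophage markers had positive changes, with a median of 0.68, and 0 passed by limma. At an unadjusted p of 0.05, 11 were higher, where 8.16% of all tested genes were. Their summed intensity was 2718, 2869 and 3039 in wild type and 7112, 3773 and 4333 in knockout arrays 1, 2 and 3. Knockout array 1 was highest for this sum and for Il15, but the sum put knockout array 3 above array 2, unlike Il15. Single markers were split, as seen afterwards. Csf1r, C1qa, C1qb, C1qc, Mrc1, Cd163, Itgam and Cd14 read higher in knockout array 2 than in array 3, as Il15 did. Adgre1, Cd68, Lyz2, Ctss, Mpeg1 and Aif1 read lower in array 2. Wild type array 1 had the highest Il15 of the wild types and the lowest macrophage sum. Summed fibroblast and tendon markers were also highest in knockout array 1, at 21973 and 10254. Mpeg1 and Cd68, both expressed by macrophages, had changes of 1.67 ± 0.33 and 0.99 ± 0.23 (SE), with limma adjusted p-values of 0.0583 and 0.0858. Their part in the Il15 difference was not tested.

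Transcripts of the cells that respond to interleukin 15 were in part too dim to test. Il15ra, which encodes the receptor alpha chain that presents the cytokine, had log2 levels of 6.75, 7.13 and 6.92 in wild type and 6.82, 6.93 and 6.87 in knockout arrays 1, 2 and 3, a change of -0.06 ± 0.11 (SE, limma adjusted p = 0.846). Il2rb, the receptor's beta chain on lymphocytes, lay under the dim filter at 3.75 and 3.70. Of 14 measured genes of this receptor and of lymphocytes, 7 lay under the filter: Il2rb, Klrb1c, Klrd1, Ncr1, Gzma, Gzmb and Cd3g, which mark natural killer and T cells. Of the other 7, by limma 0 passed. Cd4, found on helper T cells and on some myeloid cells, was at 0.83 ± 0.21 (SE, adjusted p = 0.0971), and Ptprc, the pan-leukocyte marker CD45, one of 0.48 ± 0.18 (SE, adjusted p = 0.196). Cd3e, a chain of the T cell receptor complex, was at 0.24 ± 0.12 (SE, adjusted p = 0.346). The 9 measured T and natural killer cell markers summed to an intensity of 164 to 178 in wild type and 191 to 211 in knockout arrays. Without Cd4, a check added after the values were seen, the other 8 summed to 139, 152 and 149 in wild type and 135, 153 and 172 in knockout arrays 1, 2 and 3, and the groups overlapped.

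**Figure D2:**
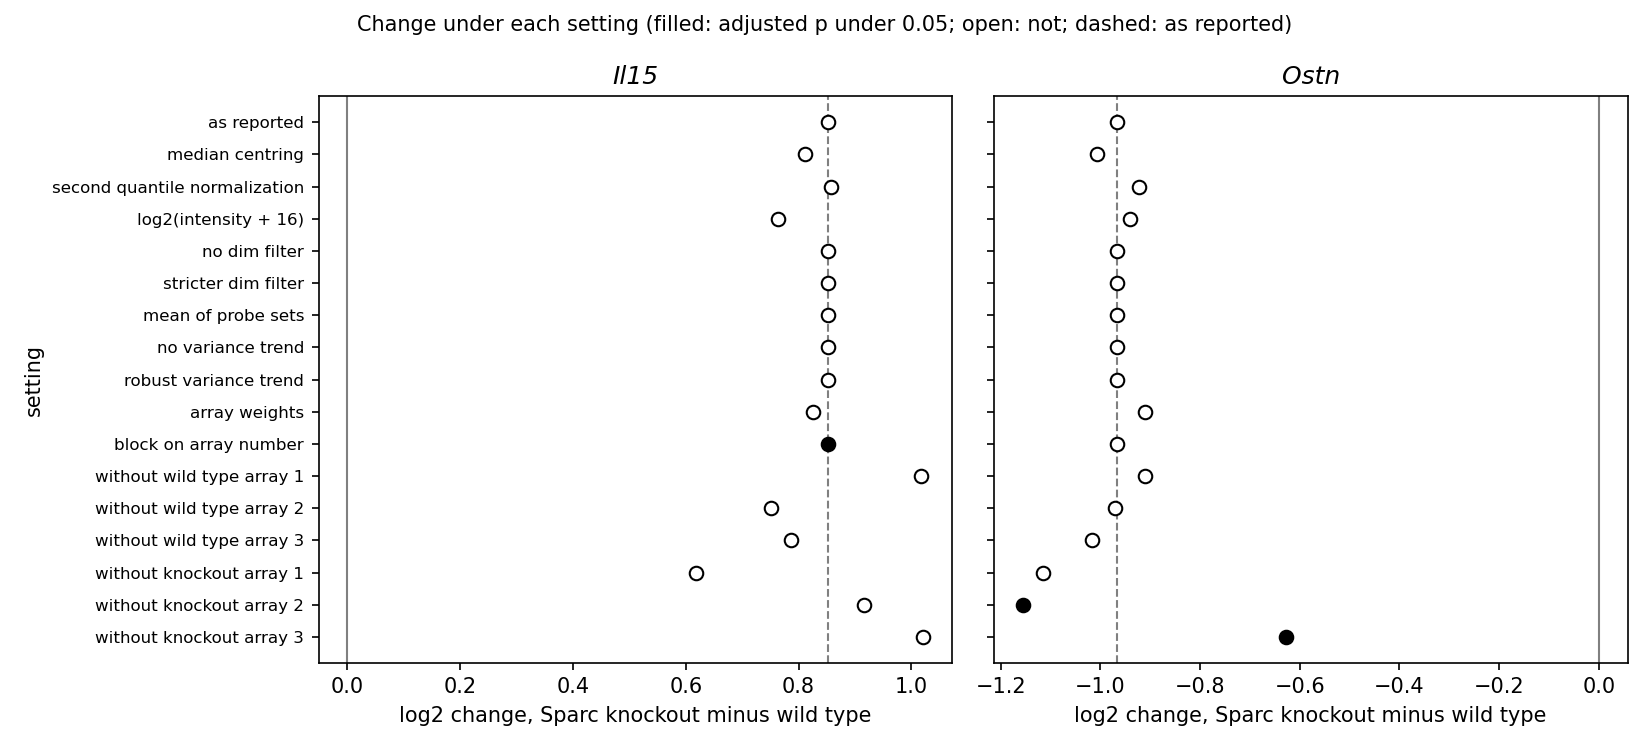
Log2 change of Il15 (left) and Ostn (right) under each setting, with filled points where the adjusted p was under 0.05. Il15 ran from 0.62 to 1.02 and passed in 1 of 16 alternatives, and Ostn ran from -1.16 to -0.63 and passed in 2 of 16.

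Metrnl had a small positive change that did not pass. Its intensities were 61.6, 66.4 and 58.9 in wild type arrays 1, 2 and 3 and 84.8, 63.0 and 72.7 in knockout arrays 1, 2 and 3. Knockout array 2 fell inside the wild type range, and the other knockouts lay above it. The change was 0.23 ± 0.12 (SE), with a 95% interval of -0.05 to 0.51, and did not pass (limma adjusted p = 0.374). The interval allows a level in knockouts from 0.963 to 1.43 times that in wild types. Kit, which encodes a receptor reported for this protein, was at 0.20 ± 0.18 (SE, limma adjusted p = 0.618).

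Bdnf, Fgf21 and Lif had changes of at most 0.08, smaller than their SEs. Bdnf intensities were 33.8, 35.1 and 28.6 in wild type and 30.0, 35.6 and 37.4 in knockout arrays 1, 2 and 3, with overlapping groups. Its change was 0.08 ± 0.13 (SE, 95% interval -0.21 to 0.37, limma adjusted p = 0.804). Fgf21 intensities were 30.4, 32.1 and 31.8 in wild type and 28.5, 31.4 and 40.4 in knockout arrays 1, 2 and 3. Only knockout array 3 lay above the wild type range, and knockout array 1 was the lowest of all. The Fgf21 change was 0.08 ± 0.14 (SE, 95% interval -0.24 to 0.39, limma adjusted p = 0.832), and it was -0.07 without knockout array 3. Lif intensities were 22.4, 20.7 and 18.3 in wild type and 19.0, 22.8 and 22.6 in knockout arrays 1, 2 and 3, again overlapping. Its change was 0.07 ± 0.13 (SE, 95% interval -0.22 to 0.35, limma adjusted p = 0.832). These intervals leave room for a change of up to 1.29-fold in Bdnf, 1.31-fold in Fgf21 and 1.28-fold in Lif upward, on a scale that RMA compresses for dim probe sets.

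Il6 read 8.69, 7.16 and 8.18 in wild type and 8.26, 8.59 and 8.52 in knockout arrays 1, 2 and 3 (intensity), with every knockout value inside the wild type range. In a fit without the dim filter its change was 0.08 ± 0.11 (SE, limma adjusted p = 0.785). By position, Metrnl and Lif lie on the chromosome that carries Sparc, and Ostn, Il15, Il6, Bdnf and Fgf21 do not, by the GRCm38.p6 gene table of RefSeq.

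**Figure D3:**
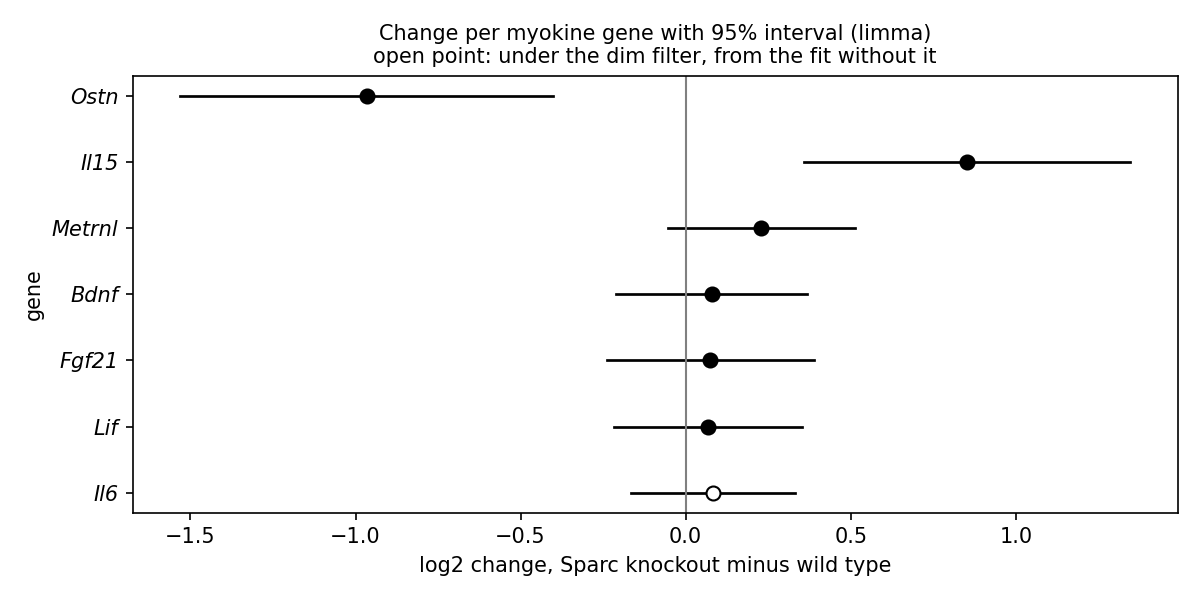
Log2 change of each measured myokine gene, knockout minus wild type, with 95% intervals from limma. The intervals of Ostn (-1.53 to -0.40) and Il15 (0.36 to 1.35) do not reach 0 before adjustment for the number of genes, and those of the other 5 genes do.

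Among genes around osteocrin, 2 passed in opposite directions. Of the 10 genes of the natriuretic peptide and osteocrin list, all tested, Nppc was lower and Prkg1 higher, while the list's median change was -0.03. Over all tested genes, 0.673% passed as lower and 0.321% as higher. At an unadjusted p of 0.05, 2 genes of the list were higher and 2 lower by limma (8.16% and 10.3% of all tested genes). The groups did not overlap for 2 higher and 2 lower genes (11.1% and 13.8% of all tested genes). Ostn itself is in this list and among the lower ones. Nppc encodes C-type natriuretic peptide, whose removal by the clearance receptor osteocrin is known to hinder. Its log2 levels were 6.52, 6.44 and 6.29 in wild type and 5.53, 5.83 and 5.78 in knockout arrays 1, 2 and 3, with no overlap. It fell 1.63-fold (log2 change -0.70 ± 0.12 SE, limma adjusted p = 0.0353), and the call was lost when any wild type array was left out, at -0.76 to -0.65 (limma adjusted p = 0.125 to 0.189), and without knockout array 3, at -0.74 (limma adjusted p = 0.0594). Prkg1, the cyclic GMP-dependent protein kinase downstream of the natriuretic peptide receptors, had log2 levels of 7.46, 7.67 and 7.47 in wild type and 8.41, 8.05 and 8.36 in knockout arrays 1, 2 and 3. It rose 1.67-fold (log2 change 0.74 ± 0.12 SE, limma adjusted p = 0.0353), a call lost after median centring (limma adjusted p = 0.0704) and on leaving out each single array except knockout array 2 (limma adjusted p = 0.0533 to 0.204). With any wild type array left out, fewer genes passed over all than the 164 of the full fit.

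The receptors of this axis did not pass. Npr3, the clearance receptor that osteocrin binds, had log2 levels of 6.71, 7.38 and 7.36 in wild type and 7.03, 6.50 and 6.76 in knockout arrays 1, 2 and 3. The groups overlapped through wild type array 1, and the change was -0.39 ± 0.20 (SE, limma adjusted p = 0.351). Npr1 and Npr2, the guanylyl cyclase receptors of the natriuretic peptides, were at 0.05 ± 0.12 and -0.07 ± 0.09 (SE). Pde5a, a phosphodiesterase that breaks down cyclic GMP, was at 0.42 ± 0.12 (SE, limma adjusted p = 0.133), with all knockout arrays above all wild types.

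Receptors of the myokines were measured for 19 of 20 listed genes, and 17 passed the dim filter. By limma 0 of them passed the adjusted threshold, and the median change was 0.04. At an unadjusted p of 0.05, 2 were higher and 1 lower (8.16% and 10.3% of all tested genes). Itgav, the integrin alpha V chain of a receptor reported for irisin, the fragment released from the Fndc5 product, was at 0.39 ± 0.11 (SE, adjusted p = 0.127), with no overlap between groups. Sort1, the sorting receptor sortilin that binds pro-neurotrophins, was at -0.44 ± 0.14 (SE, adjusted p = 0.156). Il6st, the shared gp130 chain, was at 0.28 ± 0.14 and Lifr, the receptor chain for Lif, at 0.13 ± 0.09 (SE). Ntrk2, which encodes TrkB, and Klb, beta-klotho, were at 0.03 ± 0.20 and -0.05 ± 0.20 (SE). Fgfr1, an FGF receptor that pairs with beta-klotho, was at 0.27 ± 0.10 (SE, adjusted p = 0.202), with every knockout array above every wild type array. Gfral, the brainstem receptor of the Gdf15 product, lay under the filter at 2.86 in wild type and 2.74 in knockout.

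**Figure D4:**
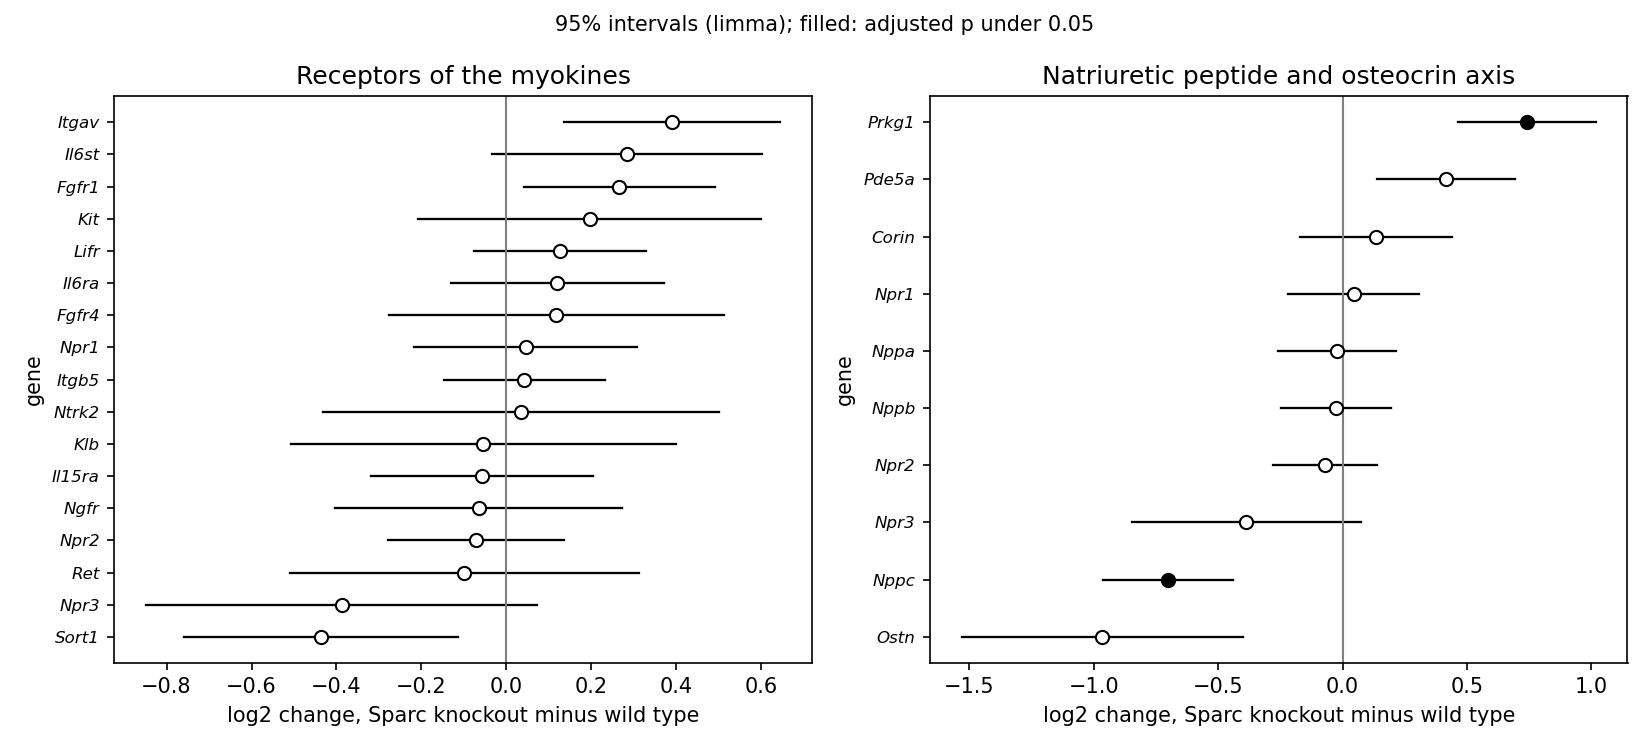
Log2 changes with 95% intervals for the tested myokine receptors (left) and the natriuretic peptide and osteocrin axis (right). Filled points, Nppc at -0.70 and Prkg1 at 0.74, passed an adjusted p of 0.05, and no receptor did.

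Genes that respond to or control the myokines gave few calls. In the list of 10 FGF response genes, all tested, 1 rose and 0 fell (0.321% and 0.673% of all tested genes). This was Spry2, a feedback inhibitor of receptor tyrosine kinase signalling. It read 6.76, 6.94 and 6.71 in wild type and 7.62, 7.66 and 7.51 in knockout arrays (log2 level) and rose 1.73-fold (0.79 ± 0.10 SE, limma adjusted p = 0.0132). Its call was lost when any wild type array was left out (limma adjusted p = 0.0527 to 0.103). Fewer genes passed over all in those fits than the 164 with all 6 arrays. At an unadjusted p of 0.05, 3 genes of the FGF list were higher and 0 lower by limma (8.16% and 10.3% of all tested genes). Besides Spry2 these were Fgfr1, given above, and Spred1, at 0.41 ± 0.11 (SE, limma adjusted p = 0.113, named after its value was seen). In the list of interleukin 6 family signalling, 17 of 20 genes were tested, 1 fell and 0 rose (0.673% and 0.321% of all tested genes). This was Cntfr, the receptor chain for ciliary neurotrophic factor, which read 8.29, 8.33 and 8.35 in wild type and 7.28, 7.78 and 7.33 in knockout arrays and fell 1.81-fold (-0.86 ± 0.14 SE, limma adjusted p = 0.0311). It lost the call when any wild type array or knockout array 3 was left out (limma adjusted p = 0.0670 to 0.167). At an unadjusted p of 0.05, 2 genes of this list were higher and 2 lower by limma (8.16% and 10.3% of all tested genes), and its median change was -0.05. Besides Cntfr these were Mt2, a metallothionein, at 0.99 ± 0.28, Osmr, the receptor chain for oncostatin M, at 0.40 ± 0.15, and Pim1, a kinase induced by cytokines, at -0.30 ± 0.09 (SE; limma adjusted p = 0.124, 0.216 and 0.149; named after their values were seen).

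By limma 0 genes passed in the remaining lists. Over all tested genes, 8.16% were higher and 10.3% lower at an unadjusted p of 0.05, which is the share to set beside the list counts that follow. Of 20 processing and regulator genes tested, 6 were higher and 1 lower at an unadjusted p of 0.05, led by Hif1a, the oxygen-sensing transcription factor, at 0.51 ± 0.13 (SE, adjusted p = 0.0978) and Ppargc1a, the coactivator known to induce Fndc5, at 0.44 ± 0.12 (SE, adjusted p = 0.122). Of 19 targets of the integrated stress response, a pathway known to induce Fgf21 and Gdf15, 1 was higher and 2 lower at that level. Ppp1r15a, which ends this response, and Shmt2, a mitochondrial serine enzyme, were at -0.28 ± 0.09 and -0.31 ± 0.11 (SE; limma adjusted p = 0.160 and 0.181). Mthfd2, named after its value was seen, was the 1 higher gene, at 0.21 ± 0.09 (SE, limma adjusted p = 0.270). In this list 6 changes were positive and 13 negative. The list's median change was -0.06, beside the small change of Fgf21.

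Of 7 neurotrophin genes tested, 0 were higher and 1 lower (Sort1, above) at an unadjusted p of 0.05 by limma. Ntrk3, the receptor of neurotrophin 3, was at -0.15 ± 0.11 (SE, adjusted p = 0.520). Relatives of Fndc5 were measured for 6 tested genes, with 3 higher and 0 lower at that level and a median change of 0.19. Fndc1 and Fndc3a, which carry fibronectin type III domains like Fndc5, were at 0.68 ± 0.14 and 0.38 ± 0.14 (SE; limma adjusted p = 0.0645 and 0.210). Of 27 other secreted factors tested, 4 were higher and 2 lower at the same level. Igf1, insulin-like growth factor 1, was at 0.76 ± 0.17 and Fstl1, a secreted glycoprotein of the SPARC family, at 0.70 ± 0.17 (SE; limma adjusted p = 0.0759 and 0.100), both without overlap between groups.

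Other cell types also differed between arrays. All 12 fibroblast and fibro-adipogenic progenitor markers had positive changes, with a median of 0.28 and a summed intensity of 14715 to 16404 in wild type and 17027 to 21973 in knockout arrays. Of 10 adipocyte markers, 9 had negative changes (median -0.36), and their summed intensity was 9809 to 12867 in wild type and 7929 to 11205 in knockout arrays, most of it from Car3, which muscle fibres also express. Without Car3, a check added after the values were seen, the other 9 summed to 2354, 3951 and 4163 in wild type and 2930, 2611 and 2413 in knockout arrays 1, 2 and 3, with wild type array 1 below all knockouts. Tendon markers summed to 3570 to 5186 in wild type and 10254, 5650 and 6089 in knockout arrays 1, 2 and 3. Satellite cell, endothelial and Schwann cell markers had median changes of 0.08, -0.01 and 0.06. By limma 0 genes passed in any of these lists. At an unadjusted p of 0.05, 4 fibroblast markers, 3 tendon markers and 1 satellite cell marker were higher (8.16% of all tested genes). At the same level 2 adipocyte markers and 1 satellite cell marker were lower (10.3% of all tested genes). All of these markers that were measured passed the dim filter.

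**Figure D5:**
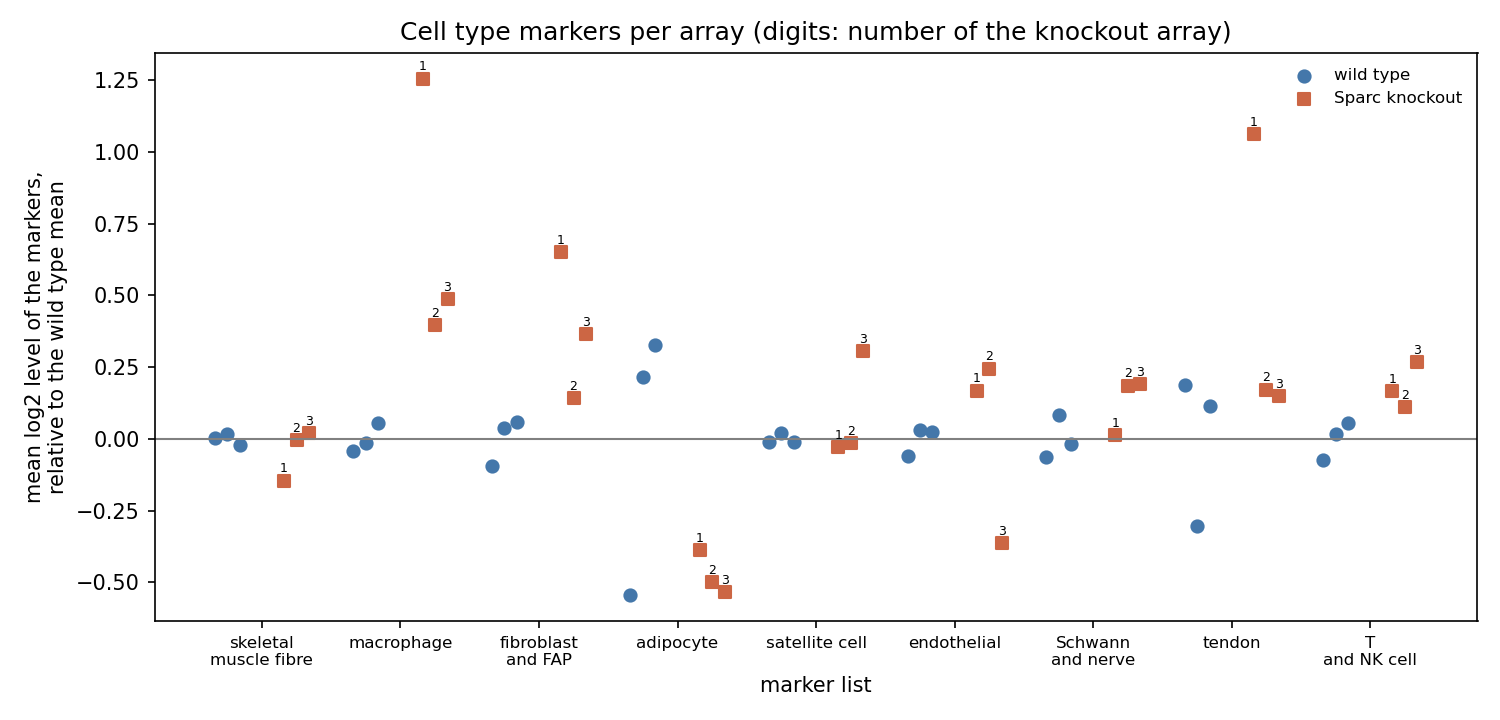
Mean log2 level of each marker list per array, relative to the wild type mean, with digits for the knockout arrays. Macrophage markers stand at 1.25, 0.40 and 0.49 in knockout arrays 1, 2 and 3, and muscle fibre markers at -0.15, -0.01 and 0.02.

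The genes whose log2 levels followed each member most closely over the 6 arrays were found among all tested genes, as a description only, since all points share the same arrays and 32 to 236 genes exceeded a Pearson r of 0.95 for each member. For Ostn, 236 genes did, led by Ei24 and Rwdd4a (r = 0.998 each), with smaller changes of -0.31 and -0.14. For Il15, 54 did, led by Tpsab1, a mast cell tryptase, and Greb1l (r = 0.995 and 0.993), at 0.41 and 0.54. Both were dim, at log2 levels of 4.52 to 4.76 and 4.60 to 4.81 in wild type arrays. In knockout arrays they were at 4.86 to 5.27 and 5.00 to 5.51. The 95th percentile of the olfactory and vomeronasal receptor genes was 4.61. Metrnl was followed most closely by Kctd2 and Adcy3 (r = 0.996 and 0.994). Bdnf was followed by Shc4 and Nhlh2 (r = 0.997 and 0.996), Fgf21 by Arl14epl and Fras1 (r = 0.998 and 0.995), and Lif by Ccdc121 and Ccdc51 (r = 0.989 and 0.986). Between members, Bdnf and Lif had the highest r, 0.91, both of them dim.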

How the data were processed

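RNA of 6 gastrocnemius samples was measured on 1 array each. The deposited intensities are on a linear scale (1.59 to 13565.8 over 35556 probe sets) and, per the submitters' processing notes, come from Affymetrix Expression Console 1.3.0.187 with RMA. A genome build was not given in the sources used here. No detection calls were used, and precision is limited by the number of arrays. RMA shrinks differences between dim probe sets. All 6 value columns were used.

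Log2 was taken with no offset. Gene names came from the platform annotation, which can be old. Of all probe sets 21789 had 1 symbol, 1621 had several and were not used, and 12146 were unnamed. Of those with 1 symbol, 21698 matched RefSeq by Entrez ID. For the 999 genes with several probe sets, the one with the highest mean was used. Genes below the 25th percentile of all probe sets were not tested (3451). The tests were made with limma 3.58.1 in R 4.3.3 (trended eBayes, two-sided, Benjamini-Hochberg over all 16487 genes). The same fit was run on simulated data, which gave each gene the same SD in both genotypes. The measured knockouts varied more than the wild types (median SD 0.163 against 0.0912), so the simulation does not cover that difference.

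The members and lists were chosen with earlier results of these data known. Named genes are the members, Sparc, up to 4 genes past the threshold per list or else the 2 of smallest p, and the 2 genes most correlated with each tested member, leaving out predicted genes, Riken clones and receptor families. Other receptors and markers named for their role were chosen after their values were seen. Lead genes of the fibroblast, adipocyte, tendon, satellite, endothelial and Schwann lists are not named.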

Additional observations from a re-analysis of the deposited data

How the results depend on the processing

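Of the alternatives, 10 were settings of the scale, filter, probe sets and fit, and 6 left out 1 array. The count of genes passing, 164, was 103 after median centring, 329 with array weights, and 27 to 1017 with 1 array left out (32, 30 and 27 without wild type arrays 1, 2 and 3, and 1017 without knockout array 2). The count of myokine genes passing, 0, was 1 with the replicate block (Il15, 0.85, limma adjusted p = 0.0301) and 0 to 1 with 1 array left out (Ostn, without knockout array 2 or 3). Same-numbered arrays did not deviate together (r = 0.009, 0.08 and -0.02), so the numbers are not shown to pair the mice, and under the block 123 genes passed. With 1 array left out, Il15 ran from 0.62 to 1.02, Ostn from -1.16 to -0.63, Metrnl from 0.12 to 0.33, Bdnf from -0.0098 to 0.17, Fgf21 from -0.069 to 0.18 and Lif from -0.0083 to 0.15, the last 3 with a change of sign. The sign also turned for Shc4 (-0.0053 to 0.17), Nhlh2 (-0.0062 to 0.35), Ccdc51 (-0.021 to 0.14), Arl14epl (-0.053 to 0.16) and Fras1 (-0.057 to 0.21). Under the 10 other settings no member changed sign, and Il15 kept 0.76 to 0.86 and Ostn -1.01 to -0.91. The causes were not tested. Il6 gave a value in the fit without the dim filter alone, and Lif gave none under the stricter filter (4.81).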
